A study of Bos taurus with 6 samples.

Results

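The receptors for the fast and slow transmitters of the nervous system were followed in cultured epithelial cells of the bovine rumen (REPC), with and without butyrate. The genes were chosen by name alone and comprise the ionotropic glutamate receptors (GRIA, GRIK, GRIN and GRID), the metabotropic glutamate receptors (GRM), the GABA-A and GABA-B receptors (GABR and GABBR), the glycine receptors (GLRA and GLRB), and the nicotinic and muscarinic acetylcholine receptors (CHRN and CHRM). In all, 77 of the 32183 listed genes met the rule. They carry 72 different names, since GABRA2, GABRG1, GABRR2, GRIK2 and GRM7 each occupy 2 entries. RNA was sequenced from 3 control cultures and from 3 cultures that received 5 mM butyrate, a product of rumen fermentation and an inhibitor of histone deacetylases, for 24 h. All 6 cultures were grown from the rumen epithelium of a single Holstein bull calf, 2 weeks old and raised on milk replacer alone, so the spread between replicates is that of cultures and not of animals. Expression is given as FPKM, the number of sequenced fragments scaled to the length of the transcript and to the size of the library, which allows levels of different subunits to be set side by side.

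Ionotropic receptors are ion channels that open when a transmitter binds, and are assembled from several subunits, whereas metabotropic receptors are single or paired proteins that signal through G proteins. NMDA receptors need the GRIN1 subunit together with GRIN2 or GRIN3 subunits. AMPA and kainate receptors carry most of the fast excitatory current in the brain, GABA-A and glycine receptors are chloride channels, and GABA-B receptors work as a pair of GABBR1 and GABBR2. Outside the nervous system, such receptors are also found in epithelia, endocrine cells and immune cells, where acetylcholine and GABA can act as local signals.

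The cells carried the transcripts of their label. All 9 epithelial markers examined were above the detection limit, and their summed FPKM lay between 2426 and 2535 in control and between 5047 and 5130 after butyrate, led by KRT8 with a mean of 1380 in control. The 9 did not move as a group. In limma 6 were called higher, KRT5 was called lower, from a mean of 400.8 to 355.9, and CDH1 and DSP were not called. KRT19 went from a mean of 492.3 to 1953, and EPCAM, low in control, from 0.54 to 3.33. Transcripts of contractile and connective tissue cells were abundant as well, with a summed FPKM of the smooth muscle markers of 6467 to 6796 in control and 2847 to 3454 after butyrate, and of the fibroblast markers of 4029 to 4174 and 5941 to 6254. In bulk RNA, a change in the number of cells of a type and a change in RNA per cell cannot be told apart. Among 12 neuronal markers, SYP, NEFL, NEFM and STMN2 were listed at 0 in all 3 control cultures, and 5 were high enough to be tested. All 5 were higher after butyrate in limma. RBFOX3 went from a mean FPKM of 0.0268 to 1.02, MAP2 from 0.221 to 1.95, DCX from 0.516 to 2.32, SNAP25 from 1.354 to 3.86 and the tubulin gene TUBB3 from 116.4 to 256.5. After butyrate, SYP, NEFL, NEFM and STMN2 had mean FPKM values of 0.0262, 0.0517, 0.0483 and 0.0977. The other markers, also too low to be tested, did not all go up. ELAVL3 went from a mean of 0.01045 to 0.0417, SYT1 from 0.0112 to 0.0126 and ELAVL4 from 0.00716 to 0. The summed FPKM of the neuronal markers was between 115.6 and 122.4 in control and between 255.2 and 278.1 after butyrate. Nearly all of this sum was TUBB3, so it says little about the other markers. The part of these markers in the changes of the receptor genes was not tested. The cultures were of like depth, with 5756613 to 6186809 effective fragments as implied by the confidence bounds that Cufflinks gives each FPKM, and no library stood apart by this measure. Summed over all genes, FPKM was 678035 to 681912 in the control cultures and lower, 619401 to 629037, in the butyrate cultures.

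Most receptor genes were silent or close to it. Of the 77 entries, 37 were listed at 0 in all 6 cultures, 13 reached a mean FPKM of 0.1 in control and 23 reached it after butyrate. With the limit at a mean FPKM of 1, the numbers were 6 and 11. Over all genes more were detected after butyrate as well. Each control culture had 16051 to 16193 genes above 0 and each butyrate culture 17306 to 17510. The expressed receptor genes were few and belonged to different receptors. GRIA3 and CHRNB1 together held between 75.9% and 78.2% of the summed FPKM of all members in the control cultures. After butyrate their share was between 33.5% and 36.0%. The summed FPKM of all members was 57.0 ± 2.48 (SD, n = 3) in control and 71.5 ± 2.86 (SD, n = 3) after butyrate.

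Changes were tested with limma on log2(FPKM + 0.1) across the 15813 genes whose FPKM averaged 0.1 or more over the 6 cultures, 21 of them receptor genes. Standard errors (SE) of the log2 fold change are from the same fit, and adjusted p stands for the Benjamini-Hochberg value unless another is named. Of these 21, 14 rose and 3 fell at a Benjamini-Hochberg adjusted p under 0.05, and 4 did not pass. The same test called 32.5% of all tested genes higher and 25.9% lower. All 3 butyrate values lay above all 3 control values in 13 of the 21 and below them in 3, where 36.1% and 28.9% of all tested genes did so. The median log2 fold change of the 21 was 1.91, beside 0.10 for all tested genes. The filter bears on this number, because 8 of the 21 had a control mean under 0.1 and were tested only on account of their butyrate values, so that a rise was built in. When the filter was set on the control mean alone, a choice made after seeing the data, 13 receptor genes were tested, of which 7 rose and 3 fell, beside 29.7% and 27.6% of all genes, and their median log2 fold change was 0.78 beside 0.01. With the stricter thresholds of the study for a differentially expressed gene (DEG), which ask for p under 0.05 after Bonferroni correction and for a change of over 2 on the log2 scale, 4 receptor genes were upregulated, GRIN3B, CHRM4, GLRB and CHRNA3, where 2.46% of all tested genes were. No receptor gene was downregulated by these thresholds, where 1.51% of all genes were. Only the thresholds are those of the study, which tested with Cufflinks tools and reported more DEGs in both directions. The calls given here are from limma and are not the study's own. At an unadjusted p under 0.05 in limma, 15 receptor genes were higher and 3 lower. The share of all genes at that threshold was not computed, and the 15 include genes tested only on account of their butyrate values. These counts are therefore not read as a result about the receptors. With 3 cultures against 3, an exact permutation test of a single gene cannot go below p = 0.1, so the calls rest on the spread that limma borrows across genes. The calls by the DEG thresholds were not robust to the loss of a culture, and 0 receptor genes passed them without butyrate replicate 1, without butyrate replicate 2 or without butyrate replicate 3. The number of all genes upregulated by these thresholds was 389 with all cultures and 156 to 166 in those 3 fits. Without control replicate 1, 2 receptor genes passed, GLRB and CHRM4.

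**Figure D1:**
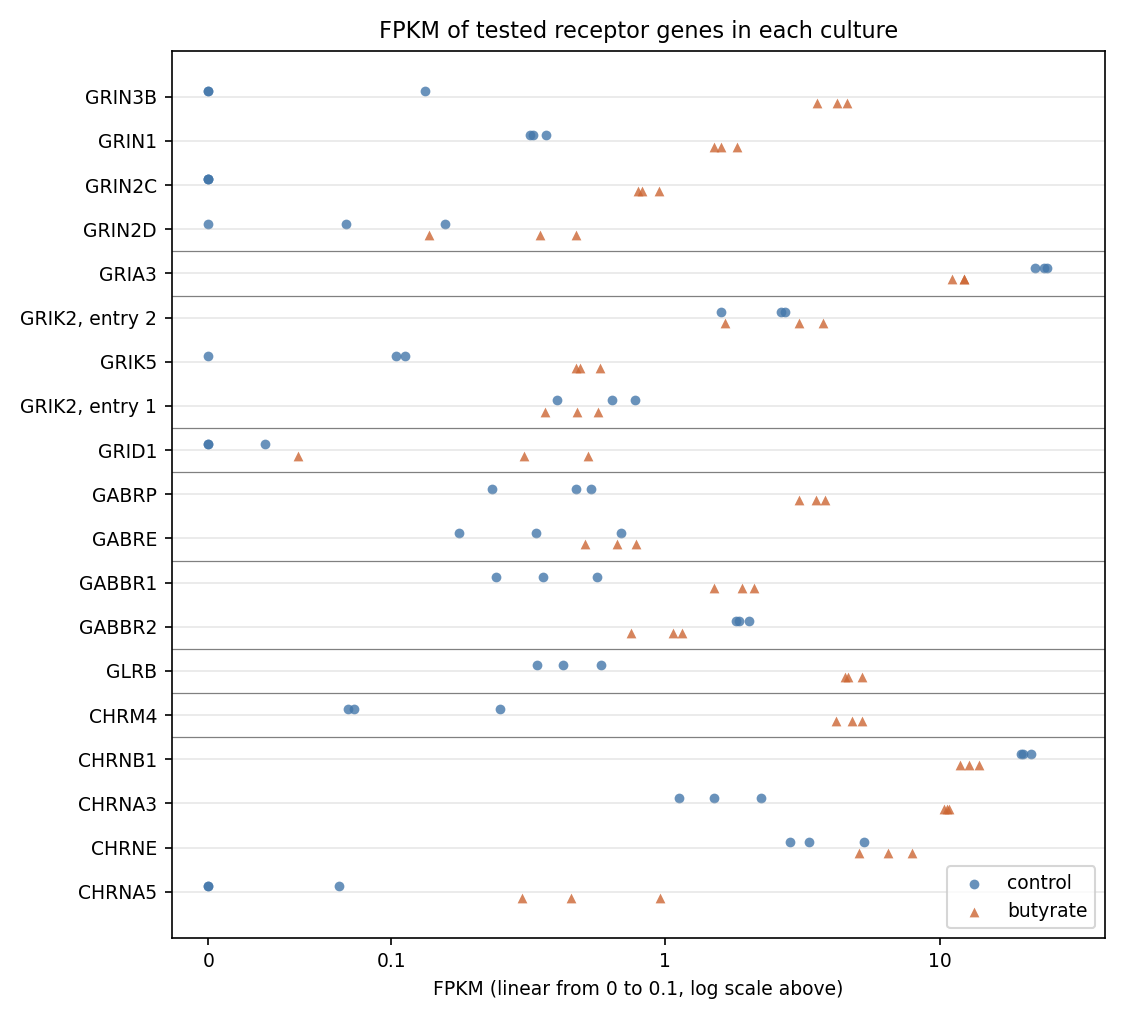
FPKM of 19 of the 21 tested receptor genes in each culture (x axis, linear up to 0.1 and on a log scale above), with 3 control cultures as circles and 3 butyrate cultures as triangles, grouped by receptor class. For GRIN3B, CHRM4, GLRB and CHRNA3 the butyrate values lie far to the right of the controls, whereas GRIA3, CHRNB1 and GABBR2 lie to the left.

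Among the glutamate receptors, 4 of 7 NMDA subunits were tested and 3 of them were called higher, beside 32.5% of all genes. Of the 4, GRIN3B, GRIN2C and GRIN2D passed the filter only through their butyrate values, so that a rise was built in and the count says little about the class. GRIN3B, a glycine-binding NMDA subunit, lies on chromosome 7 from 45130771 to 45140657 (UMD3.1). It was listed at 0 in control replicates 1 and 3 and at 0.133 in replicate 2, and at 4.21, 4.61 and 3.56 in butyrate replicates 1 to 3. Every butyrate culture was above every control, and the single nonzero control value rested on about 1.26 effective fragments, against 58.7 to 89.6 in the butyrate cultures. GRIN3B rose by a log2 fold change of 4.99 (SE 0.38, adjusted p = 7.97e-06 by limma). The size of this change is set by the control values near 0, and it was 7.40 with a pseudocount of 0.01 and 2.29 with a pseudocount of 1. As a mean over the cultures, GRIN3B stood above 3.72% of the detected genes in control and above 48.9% of them after butyrate. The control mean comes from replicate 2 alone, since GRIN3B was not detected in replicates 1 and 3. The 73 bases at its end in chromosome coordinates overlap TMEM259, and TMEM259 was at 68.7 ± 2.87 (SD, n = 3) in control and 70.4 ± 1.12 (SD, n = 3) after butyrate (adjusted p = 0.576 by limma).

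GRIN1, the subunit every NMDA receptor needs, lies on chromosome 11 from 105921670 to 105946158. Its FPKM was 0.367, 0.328 and 0.321 in control and 1.51, 1.83 and 1.59 after butyrate. The groups were well apart, and GRIN1 rose by a log2 fold change of 1.99 (SE 0.24, adjusted p = 0.000121 by limma). GRIN2C, a glutamate-binding subunit known from the cerebellum, on chromosome 19 from 57188923 to 57205373, was listed at 0 in all 3 controls and at 0.819, 0.793 and 0.949 after butyrate, with about 14.3 to 14.8 effective fragments in each treated culture. GRIN2C was thus seen in the treated cultures alone, and no fold change can be stated against a group at 0. Its difference on log2(FPKM + 0.1) was 3.25 (SE 0.35, adjusted p = 6.07e-05 by limma). GRIN2D was at 0.0751, 0 and 0.158 in control and at 0.137, 0.471 and 0.349 after butyrate, groups that overlapped, and it did not pass (adjusted p = 0.0713 by limma), although it did without butyrate replicate 1 (limma, adjusted p = 0.0375). GRIN2A, GRIN2B and GRIN3A, the other members of the class, were listed at 0 throughout.

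Summed over its subunits, the NMDA class went from 0.442, 0.462 and 0.478 FPKM in control to 6.68, 7.70 and 6.45 after butyrate. Its makeup differed as well. GRIN1 held 67.1% to 83.0% of the class in the controls and 22.6% to 24.7% after butyrate, where GRIN3B held 55.2% to 63.1%.

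The AMPA class consisted of GRIA3 almost alone. GRIA3, on chromosome X from 7178772 to 7490024, was the most abundant receptor gene of the control cells, at 24.6, 22.2 and 24.0, and stood above 75.7% of the detected genes. After butyrate it was at 12.3, 11.1 and 12.3, below every control. It fell by 0.98 on the log2 scale (SE 0.08, adjusted p = 1.23e-05 by limma), and its mean was 0.504 times that of control. GRIA3 passed the Bonferroni correction (limma, Bonferroni-adjusted p = 0.0199) but not the log2 threshold of 2. Between 259 and 526 effective fragments stood behind each of its values. GRIA2 and GRIA4 were listed at 0, and GRIA1 was above 0 in 1 culture only.

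The kainate receptor genes moved less. GRIK2 is split in 2 entries on chromosome 9, and reads cannot be assigned to one transcript across them, so both values are uncertain. The entry from 48474665 to 48742103 had a mean of 0.606 ± 0.188 (SD, n = 3) in control and 0.469 ± 0.101 (SD, n = 3) after butyrate, and the entry from 48857302 to 48939437 had means of 2.32 ± 0.629 (SD, n = 3) and 2.83 ± 1.08 (SD, n = 3). In both the groups overlapped and limma made no call, with 95% intervals of the log2 fold change from -1.03 to 0.46 and from -0.51 to 0.98. GRIK5, an auxiliary kainate subunit, was at 0.104, 0.112 and 0 in control and at 0.473, 0.486 and 0.580 after butyrate. It was called higher, with a log2 fold change of 1.91 (SE 0.42, adjusted p = 0.00434 by limma). This rested on no more than 1 effective fragment per control culture and 5 to 6 per treated culture. GRIK5 passed the filter only through its butyrate values, so that a rise was built in. GRIK4 was above 0 in butyrate replicate 1 only, at 0.285, and GRIK1 and GRIK3 were listed at 0. GRID1, of the delta family, was at 0, 0.0309 and 0 in control and at 0.521, 0.0491 and 0.306 after butyrate. Its call was weak (adjusted p = 0.0443 by limma) and was lost without control replicate 1, 2 or 3 and without butyrate replicate 3 (limma, adjusted p from 0.0677 to 0.114). Without butyrate replicate 1 it was too low to be tested. Over all 14 other fits that tested it, the call was kept in 7. Like GRIK5, GRID1 passed the filter only through its butyrate values, so that a rise was built in. Of the 9 entries of metabotropic glutamate receptors, none reached a mean FPKM of 0.1. GRM4 was above 0 in each butyrate culture, at 0.0999, 0.0432 and 0.0506, and at 0 in each control, on no more than 2 effective fragments per culture.

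**Figure D2:**
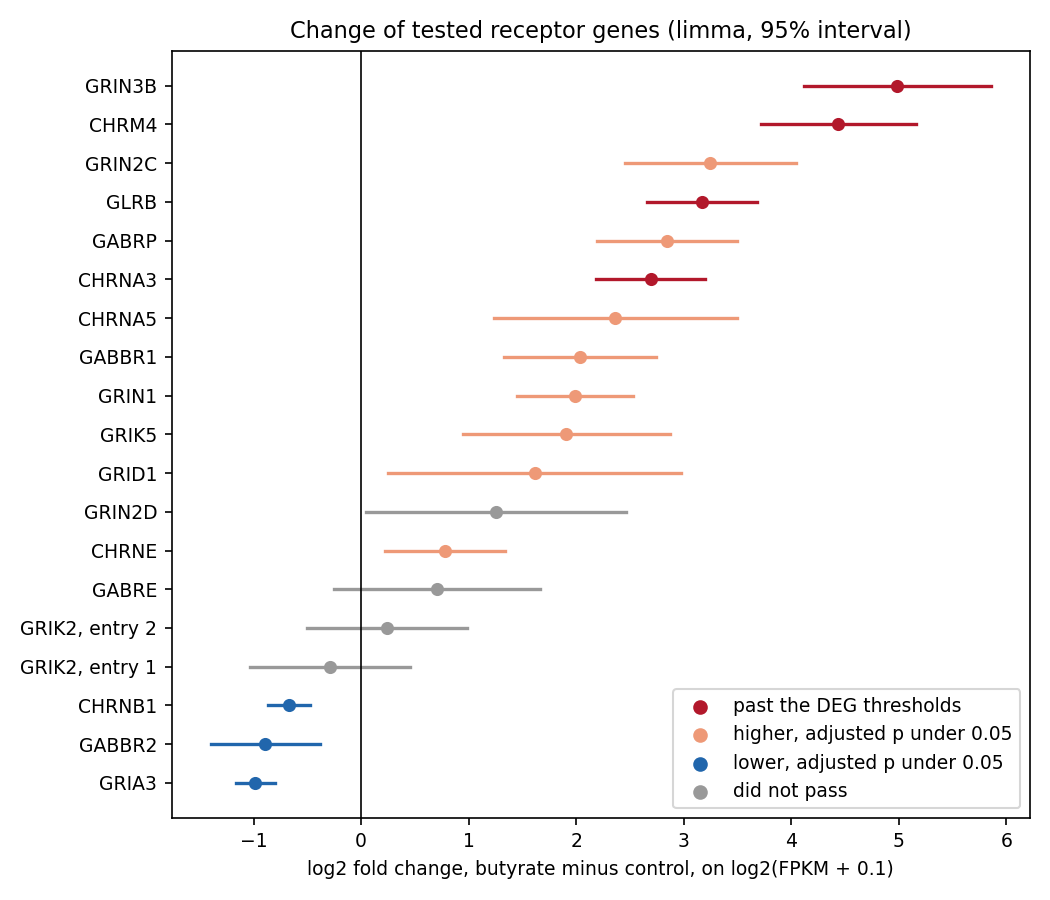
Log2 fold change of 19 of the 21 tested receptor genes, butyrate minus control, on log2(FPKM + 0.1) from limma, with bars for the 95% interval. Dark red marks the 4 genes past the DEG thresholds, light red 8 others that rose, blue the 3 that fell and grey the 4 that did not pass.

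The receptors for GABA belong to the GABA-A and GABA-B types. In the GABA-A class 12 of 22 entries were listed at 0 in all cultures and 4 were tested. GABRP, the pi subunit, which is known from epithelia more than from the brain, lies on chromosome 20 from 2583434 to 2610141. Its FPKM was 0.234, 0.536 and 0.474 in control and 3.82, 3.54 and 3.07 after butyrate. The treated cultures were all above the controls, the mean was 8.39 times that of control, and the log2 fold change was 2.85 (SE 0.28, adjusted p = 4.16e-05 by limma). The Bonferroni-adjusted p from limma was 0.0971, just short of the DEG thresholds. GABRP held 66.6% to 72.0% of the class after butyrate and 21.8% to 71.5% in control.

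GABRE, the epsilon subunit, was at 0.688, 0.177 and 0.337 in control and at 0.510, 0.669 and 0.780 after butyrate. Its groups overlapped and it did not pass (adjusted p = 0.180 by limma), except without control replicate 1, its highest control (limma, log2 fold change 1.10, adjusted p = 0.0425).

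The GABA-B subunits, which act as a pair, moved in opposite directions. GABBR1, the subunit that binds GABA, on chromosome 23 from 28775569 to 28803896, was at 0.564, 0.358 and 0.241 in control and at 1.51, 1.91 and 2.11 after butyrate. It rose by a log2 fold change of 2.03 (SE 0.31), and its mean was 4.75 times that of control (adjusted p = 0.000505 by limma). GABBR2, the subunit that couples to the G protein, on chromosome 8 from 63837725 to 64206737, was at 1.85, 2.01 and 1.80 in control and at 1.06, 0.748 and 1.15 after butyrate. It fell by 0.89 on the log2 scale (SE 0.22, adjusted p = 0.00818 by limma). Neither gene had overlapping groups. GABBR2 was the larger part of the pair in every control, with 76.6% to 88.2% of their summed FPKM, and the smaller part in every treated culture, with 28.2% to 41.4%. The sum of both genes was 2.28 ± 0.201 (SD, n = 3) in control and 2.83 ± 0.375 (SD, n = 3) after butyrate.

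Of the 5 glycine receptor genes, only GLRB was high enough to be tested. GLRB, the beta subunit that anchors the receptor to gephyrin and does not form a channel by itself, lies on chromosome 17 from 42996912 to 43086245. It was at 0.583, 0.425 and 0.340 in control and at 4.50, 5.20 and 4.62 after butyrate, on 19.0 to 32.7 and 205 to 218 effective fragments. The groups were far apart, and its mean was 10.6 times that of control. The log2 fold change was 3.17 (SE 0.22, adjusted p = 5.04e-06 by limma). The alpha subunits GLRA2, GLRA3 and GLRA4 were listed at 0 in all cultures, and GLRA1 was above 0 in 1 control and 1 treated culture, on 1 effective fragment each.

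**Figure D3:**
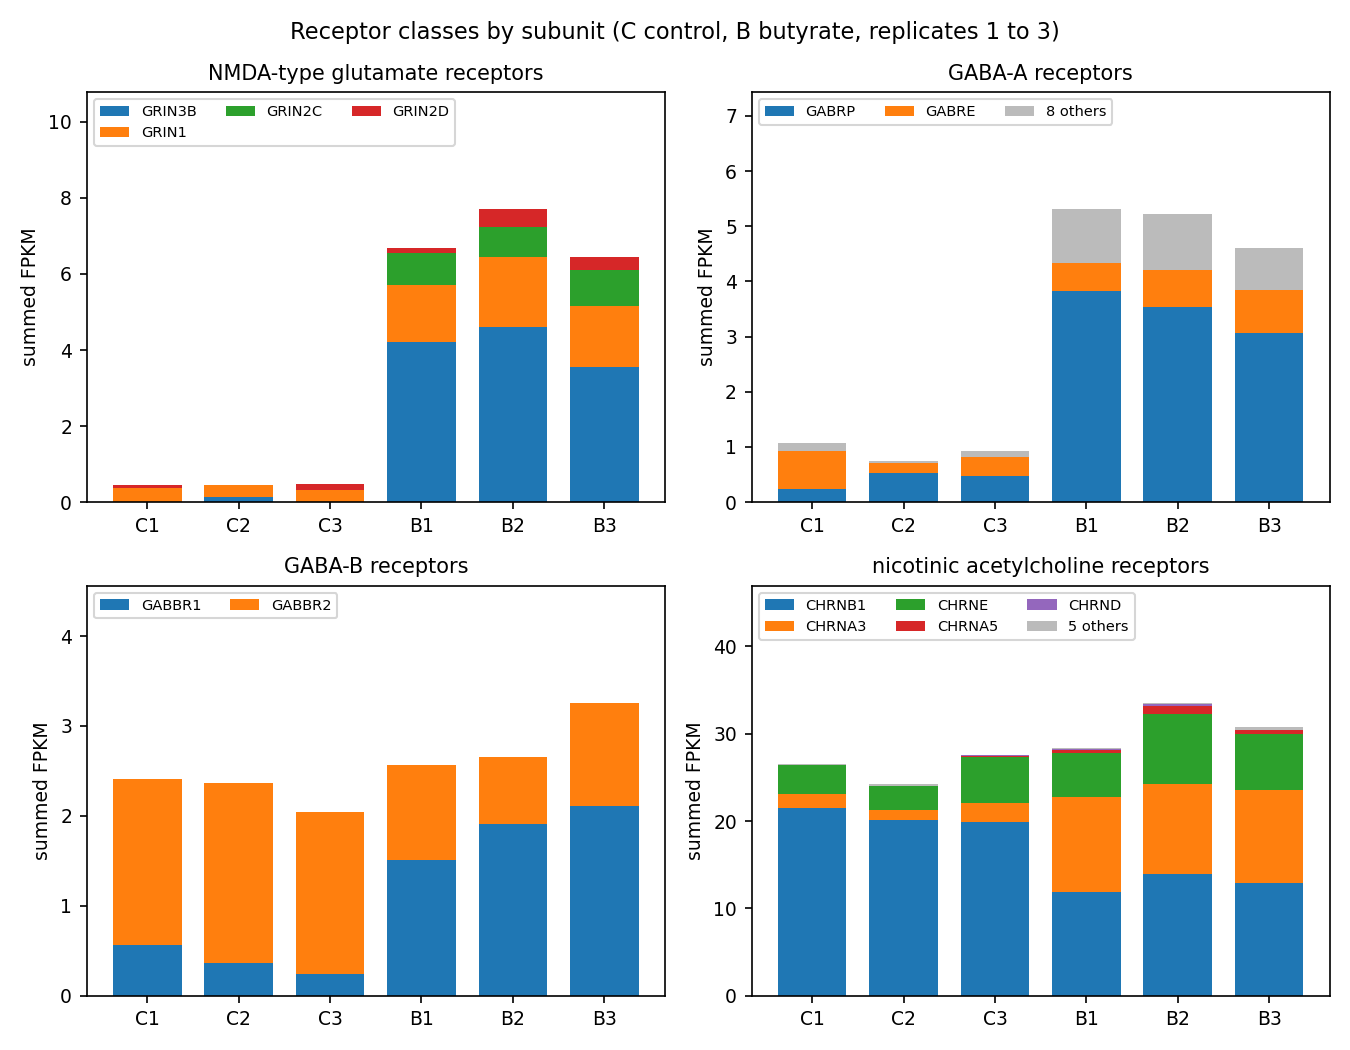
Summed FPKM (y axis) of 4 receptor classes in control cultures C1 to C3 and butyrate cultures B1 to B3, stacked by subunit. The NMDA and GABA-A bars are higher in the treated cultures, GABBR1 replaces GABBR2 as the larger part of the GABA-B pair, and CHRNA3 takes a larger part of the nicotinic class.

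CHRM4, the muscarinic M4 receptor, which lowers cAMP through inhibitory G proteins, lies on chromosome 15 from 77251931 to 77254055. Its FPKM was 0.0766, 0.249 and 0.0795 in control and 5.21, 4.21 and 4.81 after butyrate. All treated cultures were far above the controls, with 61.2 to 67.2 effective fragments against at most 2.25. It rose by a log2 fold change of 4.44 (SE 0.32, adjusted p = 5.32e-06 by limma), which was 5.23 with a pseudocount of 0.01 and 2.34 with a pseudocount of 1. CHRM4 shares 40 bases with MDK, which went from 31.7 ± 1.55 (SD, n = 3) to 42.1 ± 1.92 (SD, n = 3), a log2 fold change of 0.41 (adjusted p = 0.000643 by limma), and whether reads were counted by strand is not given in the sources used here. The part of MDK reads in the CHRM4 values was not tested. CHRM2, CHRM3 and CHRM5 were listed at 0 in all cultures, and CHRM1 was at 0.0887 in butyrate replicate 2 only.

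The nicotinic class held both rising and falling subunits. CHRNB1, the beta subunit of the muscle-type receptor, on chromosome 19 from 27757155 to 27766932, was at 21.5, 20.1 and 19.8 in control and at 11.9, 13.9 and 12.9 after butyrate. It fell by 0.67 on the log2 scale, without overlap (SE 0.08, adjusted p = 0.000176 by limma). The 6 skeletal muscle markers did not move as a group. Their summed FPKM, between 114.3 and 120.0 in control and between 15.9 and 17.5 after butyrate, was nearly all ACTA1, which fell from a mean of 116.1 to 14.5. DES and CKM, from 0.367 to 1.599 and from 0.0754 to 0.422, were called higher by limma, and MYOD1, MYOG and MYH2 were too low to be tested. The part of these markers in the CHRNB1 values was not tested. CHRNE, the epsilon subunit of the adult muscle receptor, was at 3.33, 2.84 and 5.28 in control and at 5.10, 7.93 and 6.49 after butyrate. The groups overlapped, and the rise was a log2 fold change of 0.78 (SE 0.25, adjusted p = 0.0238 by limma). The call was lost without control replicate 1 or 2 and without butyrate replicate 2 or 3 (limma, adjusted p from 0.0700 to 0.0984). It was also lost without a filter and without the trend option (limma, adjusted p = 0.0518 and 0.0616). CHRNE shares 1130 bases with C19H17orf107, whose mean was 0.105 in control and 0.330 after butyrate. The other subunits of muscle-type receptors were low, with CHRNA1 and CHRNG listed at 0 in all cultures and CHRND not above 0.238 in any.

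CHRNA3, the alpha subunit of the ganglionic receptor, on chromosome 21 from 31499997 to 31512927, was at 1.51, 1.12 and 2.23 in control and at 10.8, 10.4 and 10.7 after butyrate. The treated values were close together and above every control, on 134 to 144 effective fragments. Its mean was 6.57 times that of control, with a log2 fold change of 2.69 (SE 0.22, adjusted p = 1.26e-05 by limma). CHRNA5, an accessory subunit that joins CHRNA3-containing receptors, was at 0, 0 and 0.0717 in control and at 0.299, 0.957 and 0.454 after butyrate. It was called higher (log2 fold change 2.36, SE 0.49, adjusted p = 0.00319 by limma). CHRNA5 passed the filter only through its butyrate values, so that a rise was built in, and no control rested on more than 1 effective fragment. CHRNB4, their usual partner, was listed at 0 in each control and at 0.0921, 0.0820 and 0.185 after butyrate, on at most 2 effective fragments, and was not tested. CHRNA3 had 4.6% to 8.1% of the summed FPKM of the class in control and 31.0% to 38.2% after butyrate, while CHRNB1 went from 71.9% to 83.1% to 41.4% to 41.9%. The sum over the class was 26.1 ± 1.73 (SD, n = 3) in control and 30.9 ± 2.60 (SD, n = 3) after butyrate. The alpha subunits CHRNA4 and CHRNA9 and the beta subunits CHRNB2 and CHRNB3 were listed at 0 throughout, and CHRNA7, the homomeric receptor of immune cells and neurons, was above 0 in butyrate replicate 3 only, at 0.0869. CHRNA10 was between 0.0627 and 0.137 in control and at 0.0602, 0 and 0.0607 after butyrate, on no more than 2 effective fragments.

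The remaining members carried little signal. Of the 77 entries, 19 were above 0 in at least 1 culture but too low to be tested, of which 10 were above 0 in 1 culture only. Among these 19, 12 were above 0 in butyrate cultures only, 3 in control cultures only and 4 in both, and the highest value was 0.285. GRM4 and CHRNB4 were among those above 0 in all 3 butyrate cultures and at 0 in all 3 controls. The confidence bounds of Cufflinks, which cover the counting of fragments within a culture, lay wholly apart between the groups in 9 of the genes that rose and in GRIA3 and CHRNB1. They overlapped in 6 of the 17 genes called by limma, GABBR2, GRID1, GRIK5, CHRNA5 and CHRNE among them. The share of all tested genes with bounds apart was not computed, so these counts cannot be read as particular to the receptors. GRIN2C is among the 9, and its control bounds were 0 because its control values were 0.

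Many receptor genes lie next to each other in the genome, and neighbours did not always move together. With a limit of 1000 kb between neighbours, 30 of the 77 entries fell in 10 clusters, and 5 clusters held a gene that rose or fell. CHRNA5, CHRNA3 and CHRNB4 lie within 69.2 kb on chromosome 21, with gaps of 4.04 kb and 5.44 kb. CHRNA3 and CHRNA5 were both called higher, CHRNA5 tested only through its butyrate values, while CHRNB4 stayed near 0. GLRB rose while GRIA2, 49.7 kb away on chromosome 17, stayed at 0. CHRNE and CHRNB1, which lie within 649 kb on chromosome 19, were called in opposite directions. All 6 entries of the GABA-A cluster on chromosome 6 were listed at 0. Of the 28 tested genes flanking the 14 receptor genes that rose, 6 (21.4%) were higher and 10 (35.7%) lower after butyrate, beside 32.5% and 25.9% of all tested genes, where CHRNA3 and CHRNA5 share the same pair of neighbours.

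The partners of the receptors were followed with lists of related genes, whose counts are to be read against the 32.5% of all tested genes that were called higher, the 25.9% called lower and the median log2 fold change of 0.10. As for the receptors, a gene that passed the filter only through its butyrate values had to be higher, and counts with the filter on the control mean are therefore given as well. Those counts are to be read against the 29.7% higher and 27.6% lower of all genes under that filter. Of 36 accessory and scaffold genes of glutamate receptors, 34 were listed and 19 were tested, of which 8 (42.1%) rose and 1 (5.26%) fell, with a median log2 fold change of 0.50. With the filter on the control mean, 6 of 16 rose and 1 fell. The AMPA receptor auxiliary subunits CACNG4, CNIH2 and CACNG5 had the largest log2 fold changes among them, 2.97, 2.70 and 2.08, from mean FPKM values of 0.0203, 0.365 and 0.0852 in control to 0.834, 2.18 and 0.584 after butyrate. CACNG4 and CACNG5 were tested only through their butyrate values. Of 21 accessory genes of GABA and glycine receptors, 16 were tested, with a median log2 fold change of 0.49. In limma 5 (31.2%) rose, a share near that of all genes, and none fell, with 1 lower at an unadjusted p under 0.05. With the filter on the control mean, 5 of 15 rose. SHISA7, an auxiliary subunit of GABA-A receptors, and GABARAPL2 and GABARAPL1, relatives of the GABA-A receptor binding protein GABARAP that also serve in autophagy, had log2 fold changes of 1.45, 0.86 and 0.79. GPHN, which encodes gephyrin, was not called.

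Of 15 accessory genes of acetylcholine receptors, 12 were tested, and 6 rose and 1 (8.33%) fell, with a median log2 fold change of 1.08. With the filter on the control mean, 5 of 10 rose and 1 fell. LY6E and LYNX1, of the Ly6 family whose members include regulators of nicotinic receptors, went from a mean FPKM of 4.02 ± 0.393 to 43.9 ± 5.02 and from 1.49 ± 1.45 to 8.502 ± 0.802 (SD, n = 3 each), with log2 fold changes of 3.41 and 3.30. CRELD2, an endoplasmic reticulum protein, fell by 2.20 on the log2 scale, from 153.5 ± 6.55 to 33.3 ± 0.738 (SD, n = 3 each).

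Genes that make, move or break down the transmitters were counted next. Of 38 such genes, 21 were tested, and 11 (52.4%) rose and 4 fell, with a median log2 fold change of 0.25. With the filter on the control mean, 9 of 19 rose and 4 fell. SLC17A7, the vesicular glutamate transporter, went from 0.298 ± 0.127 to 30.9 ± 2.70 FPKM (SD, n = 3 each), a log2 fold change of 6.34 (SE 0.25, adjusted p = 2.00e-07 by limma). ACHE, the esterase that ends the action of acetylcholine, went from 0.545 ± 0.121 to 30.1 ± 1.73 FPKM (SD, n = 3 each), a log2 fold change of 5.56 (SE 0.16, adjusted p = 6.21e-08 by limma). SLC7A10, which carries glycine and D-serine, was listed at 0 in all controls and had a mean of 1.51 ± 0.436 (SD, n = 3) after butyrate. The glutamate transporter SLC1A1 fell by 1.11 on the log2 scale, from 36.5 ± 0.905 to 16.9 ± 0.678 FPKM (SD, n = 3 each). The enzymes and carriers that release acetylcholine or GABA were low, and CHAT, SLC18A3, SLC5A7, GAD1 and SLC32A1 were not above the limit for testing. GAD2 was tested and not called, with a mean of 0.258 in control and 0.2885 after butyrate (adjusted p = 0.805 by limma).

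Receptors for amines and purines, which the naming rule left out, were counted in the same way. Of 50 such genes, 22 were tested, and 13 (59.1%) rose and 3 (13.6%) fell, with a median log2 fold change of 1.34. With the filter on the control mean, 11 of 18 rose and 3 fell, and ADRB3 was not among those tested. ADORA2A, ADRB3 and P2RX3 had log2 fold changes of 5.81, 3.45 and 2.99, and ADORA2A went from 0.163 ± 0.282 to 10.04 ± 1.21 FPKM (SD, n = 3 each), with a value above 0 in only 1 of the 3 controls. HTR1B fell by 1.75 on the log2 scale, from 17.6 ± 0.889 to 5.17 ± 0.763 FPKM (SD, n = 3 each). All 15 genes listed for the repressor complex of REST, a factor known to silence neuronal genes in other cells, were tested, and 6 rose and 2 (13.3%) fell. Their median log2 fold change of 0.12 was close to that of all genes, and the counts were the same with the filter on the control mean. CTDSP1, RCOR2 and PHF21A had log2 fold changes of -1.54, 1.03 and 1.01. REST itself was at 2.27, 2.80 and 2.42 in control and at 2.13, 1.88 and 1.92 after butyrate. Its values did not overlap, but the change did not pass (log2 fold change -0.32, SE 0.17, adjusted p = 0.131 by limma).

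**Figure D4:**
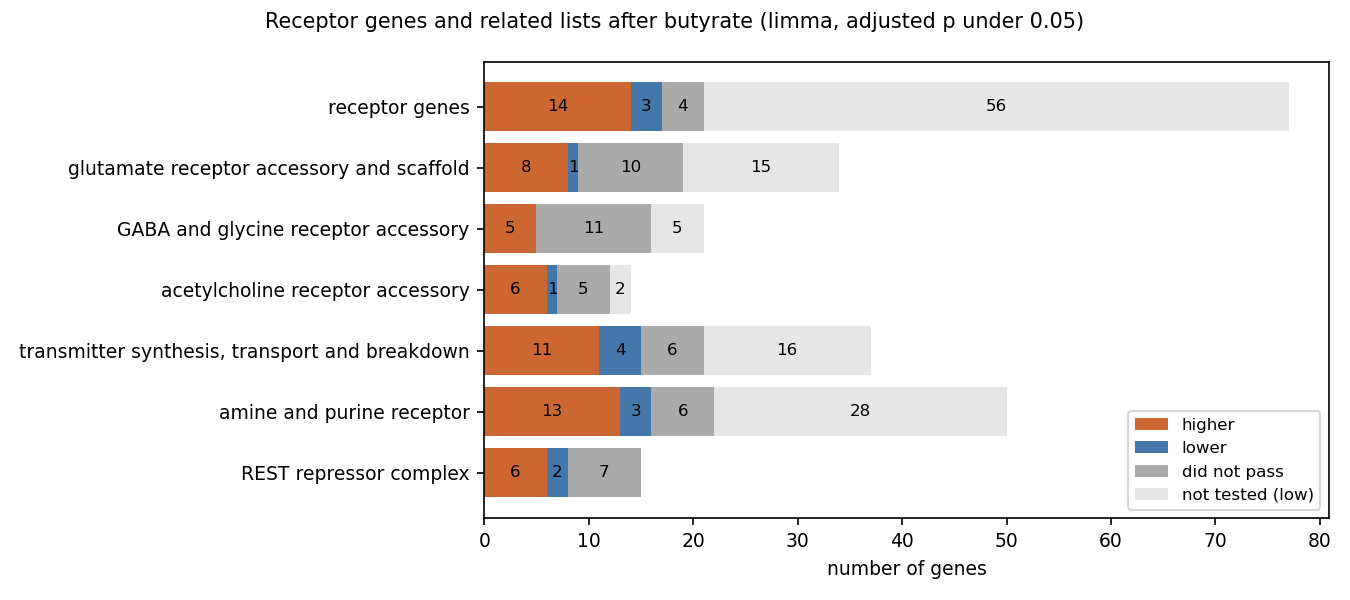
Number of genes (x axis) in the receptor set and in 6 related lists that rose, fell, did not pass or were too low to be tested after butyrate (limma, Benjamini-Hochberg adjusted p under 0.05). Of 77 receptor entries, 14 rose, 3 fell and 56 were too low to be tested.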

How the data were processed

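The members and lists were chosen with earlier results of these data known. Per the labels and the methods of the study, the authors trimmed reads (paired, 150 bp) with Trim Galore 0.4.1, mapped them with STAR, left out reads that mapped to several places and computed FPKM per gene with Cufflinks (UMD3.1), deposited with confidence bounds as 1 table per culture. Entries were joined by name and locus, with starts counted from 1. The 2 entries with a failed estimate were left out. FPKM is not a count, so no count test was run. log2(FPKM + 0.1) was fitted in limma 3.58.1 (R 4.3.3), with its trend option and without a block, where FPKM averaged 0.1 or more, with Benjamini-Hochberg adjustment, and the fit was checked on simulated data. Chromosomes were assigned through gene symbols in a RefSeq table (ARS-UCD2.0) that holds all 72 names. Effective fragments are the square of 2 FPKM over the distance to the upper bound, an approximation. Named are all members passing a test, the 5 highest in control, GRIN3B, the 3 closest to passing, the 3 largest called changes of each list (others were added after their values were seen) and REST. Some members are counted in the totals but not reported here by name. No sequence is printed. The alternatives were other pseudocounts, filters, variance models and scalings, the replicate block, and each culture left out. Between cultures with the same replicate number, correlations of deviations were 0.0228, -0.00431 and 0.00177. With 3 cultures per group, such values cannot exclude a pairing.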

Additional observations from a re-analysis of the deposited data

How the results depend on the processing

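The 14 genes that rose became 7 with a mean FPKM of at least 1 and 7 with the control mean as the filter (chosen after seeing the data), since fewer genes are then tested, and were 11 to 16 in the other fits, with 3 or 4 genes lower. Over all genes, 5144 were higher in the main fit, 4044 and 4391 with these 2 filters, and 4284 to 6018 in the other fits. Between 3382 and 4679 of all genes were lower across the fits. The 4 upregulated DEGs became 1 with a pseudocount of 0.01 (GLRB), 0 without a filter, 1 without the trend (GRIN2C) and 1 with the replicate block (GRIN3B), and ranged from 0 to 3 with a culture left out. Over all genes, the upregulated number also fell, from 389 to 282, 213, 213 and 226 in the same 4 fits. It was 156 to 337 with a culture left out. The cause was not tested. With the replicate block, 12 genes rose and 3 fell, and GRID1 was among those that lost their calls. Whether the shared replicate numbers pair the cultures is not given in the sources used here. In control, 13 members were detected at a mean FPKM of 0.1, 6 at a mean FPKM of 1 and 27 above 0 in at least 1 culture. After butyrate these numbers were 23, 11 and 37. Over all genes, 16051 to 16193 were above 0 in each control culture and 17306 to 17510 in each butyrate culture. The second GRIK2 entry changed sign to -0.051 with quantile normalization, and ranged from -0.00076 to 0.57 with a culture left out. The median log2 fold change of all genes was 0.10, 0.24 after rescaling to TPM and -0.05 with quantile normalization, and no gene called higher or lower changed direction under these scalings. Over the tested members, 311 refitted values stayed on their side of the threshold and 22 calls were lost, among them those of CHRNE, GRID1 and GRIK5. Quantile normalization gave the first GRIK2 entry a call, at -1.0. Of the counts over the related lists, 182 stayed within 1.5 times and 22 did not. Depth limits the low genes, and 10 of the 21 tested members rested on a mean of under 5 effective fragments in control.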
